A study of Rattus norvegicus with 115 samples.

Results

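Leukocytes of treated rat mammary tumours were compared between tumours that the authors classed as stable and tumours that they classed as growing. The libraries were 22 of the 108 columns of the deposited count table. A column was taken where Ptprc, the gene of the pan-leukocyte phosphatase CD45, reached 300 CPM (counts scaled to a common library total), where the rat had received a treatment other than vehicle, and where the deposited sample table gave the tumour a growth class. Of 23 such treated columns 1 had no class and was left out. Columns of 1 rat and class were summed, which gave 18 samples from 16 rats, 6 stable and 12 growing. Rats P24 and P31 carried tumours of both kinds and count once in each class. The rat is the replicate.

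Virgin Sprague Dawley rats had been given the mammary carcinogen NMU (N-nitroso-N-methylurea) by 1 to 3 intraperitoneal injections of 50 mg/kg at 35 to 53 days of age. Treatment began at the first palpable tumour. It was an antibody against PD-L1 (labelled PDL1), LY2157299, a small molecule that blocks the kinase of the type I TGF-beta receptor (labelled LY), or both (labelled PDL1+LY). All rats compared here had received NMU and 1 of these treatments, and each treatment group held stable and growing tumours. Under the antibody 2 stable and 4 growing samples entered, under LY2157299 2 and 3, and under the combination 2 and 5. A rat could give several tumours, so a stable and a growing tumour can share a host and a drug exposure. No source used here gives the age at treatment or the rule behind the growth class. Deposited growth rates of the member tumours, in units that are not stated, ran from 0.107 to 1.97 in the stable and from 2.36 to 30 in the growing class, so the classes divide at a gap in that measure and it was not tested.

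T cells that recognise tumour antigen are held back by PD-L1, which engages the inhibitory receptor PD-1 on them, and by TGF-beta, which damps their activation and keeps them away from tumour cells. Tumour macrophages clear debris through complement and scavenger receptors, and many of them express PD-L1 and release factors that favour growth. CD8 T cells and NK cells kill with granzymes and perforin, and B cells and plasma cells often gather in lymphoid aggregates of treated tumours.

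The column headers give a rat and a tumour but no sorted fraction, so Ptprc stands in for the CD45 label. Among the tumours of vehicle and treated rats, each of the 35 with a CD45 sample in the labels had 1 column past the minimum, and 0 tumours without such a sample had one. Untreated tumours and the 21 columns not used were outside this check. The minimum fell in a wide gap: the lowest column past it held 486 CPM of Ptprc and belonged to a vehicle tumour, the highest below it held 124 CPM and came from the stable anti-PD-L1 tumour of rat P28, and the members held 957 to 2049 CPM. After summing and TMM scaling Ptprc ran from 1129 to 1687 CPM in the stable and from 966 to 1480 CPM in the growing rats. Ptprc chose the columns, so these levels are a description. Summed samples held 7830294 to 22485394 counts in the stable and 10968936 to 33970696 in the growing rats, and 3 counts correspond to 0.0883 to 0.383 CPM. No pair of member columns was identical. Stable libraries under the antibody all came from batch 2, as the sample table numbers it, whereas the other groups held columns of batches 2 and 3.

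T cell genes were abundant in both classes. The summed level of the T cell markers Cd3e, Cd3d, Cd2 and Lck ran from 3076 to 4332 CPM in the stable rats. In the growing rats it ran from 2433 to 4657 CPM. Cd68, Csf1r, C1qa and Mrc1, which mark macrophages, together ran from 37.5 to 445 CPM (median 156) and from 103 to 1714 CPM (median 460). Cells outside the gate were present at low level in both classes. Epcam, Krt8 and Krt18 of luminal epithelium summed to 53.9 to 222 CPM in the stable and 35.4 to 288 CPM in the growing rats, with all 3 genes detected. The fibroblast genes Col1a1, Dcn and Pdgfra summed to 4.71 to 105 CPM and to 0.794 to 196 CPM, and the basal keratins Krt5 and Krt14 to 0.999 to 16 CPM and to 4.55 to 24.8 CPM. In bulk RNA of a sorted fraction, fewer cells of a type and less RNA per cell cannot be told apart.

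No gene passed the test between stable and growing tumours. Of 11820 genes tested, 0 had an adjusted p under 0.05 (edgeR quasi-likelihood F test with treatment as a covariate, Benjamini-Hochberg, called share 0%), and the smallest adjusted p was 0.914. At an unadjusted p under 0.05 stood 597 genes, 295 of them with a higher level in the stable rats (2.50% of all tested) and 302 with a lower one (2.55%), which together make 5.05%. DESeq2 with the same design called 5 genes and limma voom called 0. The median log2 fold change over all genes was -0.02 with TMM and -0.01 with RLE scaling. Of all genes tested 5647 lay above 0 and 6173 below. The values below describe these 18 samples, and none of them is a call.

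**Figure D1:**
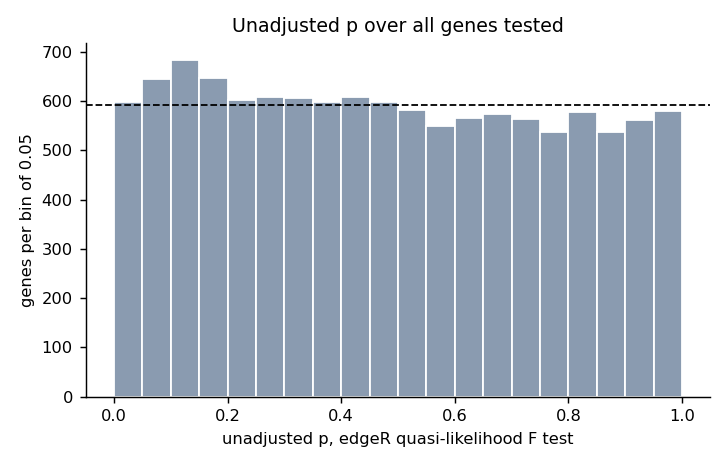
Unadjusted p of the 11820 genes tested between stable and growing tumours, in 20 bins of 0.05 on the horizontal axis, with the number of genes per bin on the vertical axis. The dashed line at 591 genes is an even spread, and the first bin holds 597 genes.

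Macrophage genes lay lower in the stable tumours as a group, without any of them passing the test. Of 22 macrophage genes tested (24 listed), 21 had a negative log2 fold change and 18 had a lower mean in the stable rats under each of the 3 treatments, where 13.9% of all genes did so. At an unadjusted p under 0.05 stood 8 of the 22, all lower in the stable rats, beside 2.55% of all genes. The median log2 fold change of the list was -1.15, against -0.02 over all genes. It lay at -0.96 in batch 2 alone and at -1.23 in batch 3 alone, and leaving out any 1 rat kept it between -1.68 and -0.94. With the rat as a block, which rests on the 2 rats with both kinds of tumour, it was -0.62, and without those rats -1.78.

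Gpnmb, a glycoprotein of lysosome-rich macrophages, lay at 2.43, 22.7 and 65.6 CPM (lowest, median and highest) in the 6 stable rats. In the 12 growing rats it lay at 17.4, 76.1 and 277 CPM. The highest levels belonged to growing tumours, of the combination rats P33 (277 CPM) and P34 (253 CPM) and of LY2157299 rat P16 (227 CPM), and the lowest to the stable anti-PD-L1 rat P28, with wide overlap between the classes. The log2 fold change was -1.86 ± 0.63 (SE, 95% interval -3.18 to -0.53, unadjusted p = 0.0088).

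C1qc and C1qb encode chains of C1q, the recognition molecule of the classical complement pathway, which macrophages make. C1qc lay at 5.42, 41.3 and 67 CPM in the stable and at 32.2, 112 and 321 CPM in the growing rats (log2 fold change -1.81 ± 0.64, unadjusted p = 0.012). Every stable rat lay below the growing median, and 4 of the 12 growing rats (P16, P29, P31 and P35) lay at or below 42.9 CPM. C1qb lay at 2.50, 37.3 and 81.8 CPM against 29.4, 132 and 260 CPM (-1.65 ± 0.67, unadjusted p = 0.025).

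Msr1, a scavenger receptor, gave the lowest fold change of the list at -3.17 ± 1.17. It was not detected in the stable rat P28, where 3 counts equal 0.201 CPM, and reached 4.81 CPM in the other stable rats. Growing rats spanned 0.794 to 97.8 CPM with a median of 6.77 CPM, and the upper end rested on P33 (97.8 CPM) and P24 (67.6 CPM). Spp1, the secreted phosphoprotein osteopontin, lay at 1.43, 26.7 and 93.3 CPM in the stable and at 25.3, 64.7 and 316 CPM in the growing rats, with a log2 fold change of -1.62 ± 0.65. The stable rats P21 (93.3 CPM) and P36 (78.8 CPM) stood above the growing median. Maf was the 1 gene of the list above 0, at a log2 fold change of 0.31.

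The mean log2 CPM of the macrophage list showed which rats carried this. It was 1.60 in the stable rat P28 and 3.58 to 5.14 in the other stable rats, and it ran from 3.82 to 6.76 in the growing rats. Without P28 the median log2 fold change of the list was -0.94. Within LY2157299 both stable rats (3.58 and 4.33) lay below all 3 growing rats (4.52 to 6.13). Under the antibody and under the combination the classes overlapped. In rat P24, which carried both kinds, the stable tumour stood at 5.14 and the growing one at 6.23, in different batches. In rat P31, with both kinds in batch 2, they stood at 3.99 and 3.82.

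**Figure D2:**
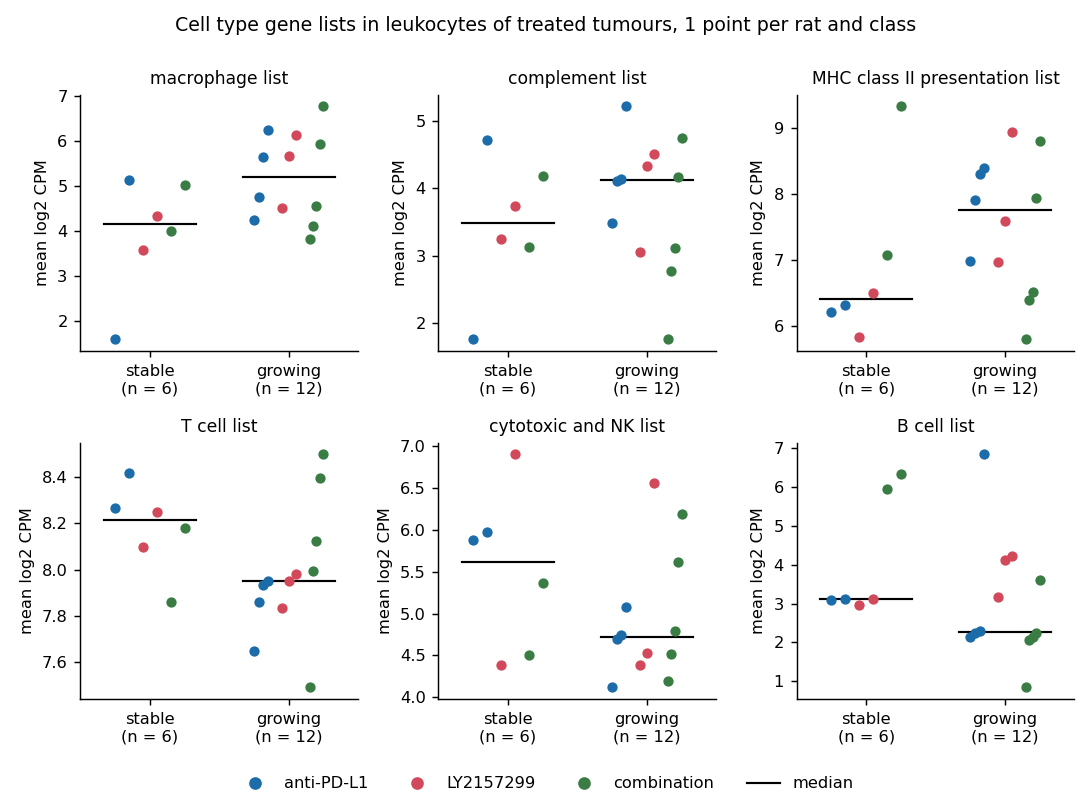
Mean log2 CPM of 6 gene lists (vertical axes) in stable and growing tumours (horizontal axes), with 1 point per rat and class coloured by treatment and a line at the median of each class. The stable macrophage values span 1.60 to 5.14 and the growing ones 3.82 to 6.76, and the 2 stable combination rats stand above every growing combination rat in the B cell list.

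Complement genes also had a median below 0 over all rats. Of 19 complement genes tested 13 lay below 0, with a median log2 fold change of -0.98. In 7 of the 19 the mean lay lower in the stable rats under each treatment, beside 13.9% of all genes. In 4 it lay higher under each treatment, beside 12.2%. The mean of the list was 0.34 log2 CPM higher in the stable rats under the combination and lower under either drug alone. At an unadjusted p under 0.05 stood 5 of the 13, beside 2.55% of all genes. The 3 C1q chains belong to this list and to the macrophage list. C5ar1, the receptor of the anaphylatoxin C5a on myeloid cells, lay at 0.0714, 4.41 and 8.97 CPM in the stable and at 0.840, 13.9 and 51.6 CPM in the growing rats (-1.78 ± 0.75). Its lowest value belonged to P28. Cd59, which shields cells from the membrane attack complex, lay at 24.5, 37.6 and 153 CPM against 29.4, 87.3 and 903 CPM (-1.73 ± 0.79). The list median was -0.62 in batch 2 and -0.85 in batch 3, came to -0.21 without rat P33, and was 0.0010 with the rat as a block.

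Of 27 cytokine genes tested 26 had a negative log2 fold change, and the median was -0.90. At an unadjusted p under 0.05 stood 3 of the 26, beside 2.55% of all genes. In 8 of the 27 the mean lay lower in the stable rats under each treatment, beside 13.9% of all genes. Csf1, the growth factor of macrophages, lay at 1.28, 8.17 and 24.4 CPM in the stable and at 6.91, 16.4 and 59.9 CPM in the growing rats (log2 fold change -1.36 ± 0.58, unadjusted p = 0.031). Il18, an inflammasome cytokine, lay at 13.4, 16.4 and 30.6 CPM against 12.4, 31 and 36.9 CPM (-0.62 ± 0.25). Osm, a cytokine of myeloid cells, lay at 5.42, 7.32 and 79.6 CPM against 18.1, 30.3 and 167 CPM (-1.29 ± 0.59), and the stable rats P24 (79.6 CPM) and P36 (30.9 CPM) stood above the growing median. Il4, a type 2 cytokine, gave -1.28 ± 0.75. The cytokine median was only -0.16 in batch 2, against -0.54 in batch 3 and -0.57 with the rat as a block.

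Ccl12, a chemokine that draws monocytes through Ccr2, lay at 0.604, 1.10 and 3.58 CPM in the 6 stable rats and at 1.43, 8.60 and 28.6 CPM in the 12 growing rats. The growing rats P33 (28.6 CPM), P24 (28.1 CPM) and P16 (22.6 CPM) were highest, and only 3 growing rats (P29, P31 and P35) lay below the highest stable value. The log2 fold change was -2.88 ± 0.71 (95% interval -4.37 to -1.39, unadjusted p = 0.00071), and DESeq2 gave an adjusted p of 0.0197. In the 7 vehicle rats with growing tumours Ccl12 lay at 3.15, 93.8 and 149 CPM.

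Of 25 chemokine genes tested 18 lay below 0, with a median of -0.66. In 13 the mean lay lower in the stable rats under each treatment, beside 13.9% of all genes. Ccl24, an eosinophil attractant made by macrophages, lay at 0.944, 4.93 and 14 CPM against 4.17, 13.2 and 93 CPM (-1.74 ± 0.64). Ccl9, which acts on Ccr1 of myeloid cells, gave -1.64 ± 0.82. Ccl5, an attractant made by T and NK cells, pointed the other way. It lay at 94.1, 351 and 2549 CPM in the stable and at 26.3, 108 and 548 CPM in the growing rats, with a log2 fold change of 1.68 ± 0.80 and an unadjusted p of 0.050. Its highest value came from the stable LY2157299 rat P17. The chemokine median was -0.12 in batch 2, -0.73 in batch 3, -0.26 with batch as a covariate, -0.38 without P33 and -1.35 with a filter at 5 CPM.

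Genes of MHC class II presentation lay on different sides of 0 by treatment. Of 11 tested, 9 lay below 0 with a median log2 fold change of -0.59, none at an unadjusted p under 0.05. The median was -0.11 without P33 and 0.11 with the rat as a block, and it lay between -0.33 and -0.25 in either batch alone, with batch as a covariate, with voom and with each column as a library. Cd74, the invariant chain that chaperones class II molecules, lay at 6021, 8359 and 21411 CPM in the stable and at 3230, 11406 and 50286 CPM in the growing rats (-0.59 ± 0.49). The class II chains RT1-Da, RT1-Db1 and RT1-Ba gave -0.63 ± 0.49, -0.61 ± 0.50 and -0.62 ± 0.51. Mean log2 CPM over these genes was 5.82 to 6.50 in the 4 stable rats under the antibody or LY2157299, below all 7 growing rats on these drugs (6.96 to 8.93). Under the combination the stable rat P36 held 9.33, the highest of all 18 samples, and P31 held 7.07, among growing values of 5.79 to 8.80. The interaction of class and treatment, tested gene by gene with edgeR, gave adjusted p of 0.867 or more throughout, and 659 genes (5.58%) had an unadjusted p under 0.05.

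A list of 16 genes, found lower under the combination in an earlier analysis of these data, had a median log2 fold change of -1.0. All 16 lay below 0, and 9 were lower in the stable rats under each treatment, beside 13.9% of all genes. The median was -0.43 without P33, -1.52 without P36 and -0.20 with the rat as a block. This list was chosen on libraries that overlap those compared here, so its direction is not independent evidence. Rassf4, a member of the RAS-association domain family, lay at 15.9, 35.9 and 121 CPM in the stable and at 37.6, 106 and 357 CPM in the growing rats (-1.35 ± 0.49). Clear overlap remained, with P36 the highest stable rat. Alox5ap, which leukotriene synthesis needs, gave -1.03 ± 0.54, and Fxyd2, a regulator of the sodium pump, gave -1.76 ± 0.90. The median of this list within the combination rats was -0.09, against -1.49 under the antibody and -2.01 under LY2157299.

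**Figure D3:**
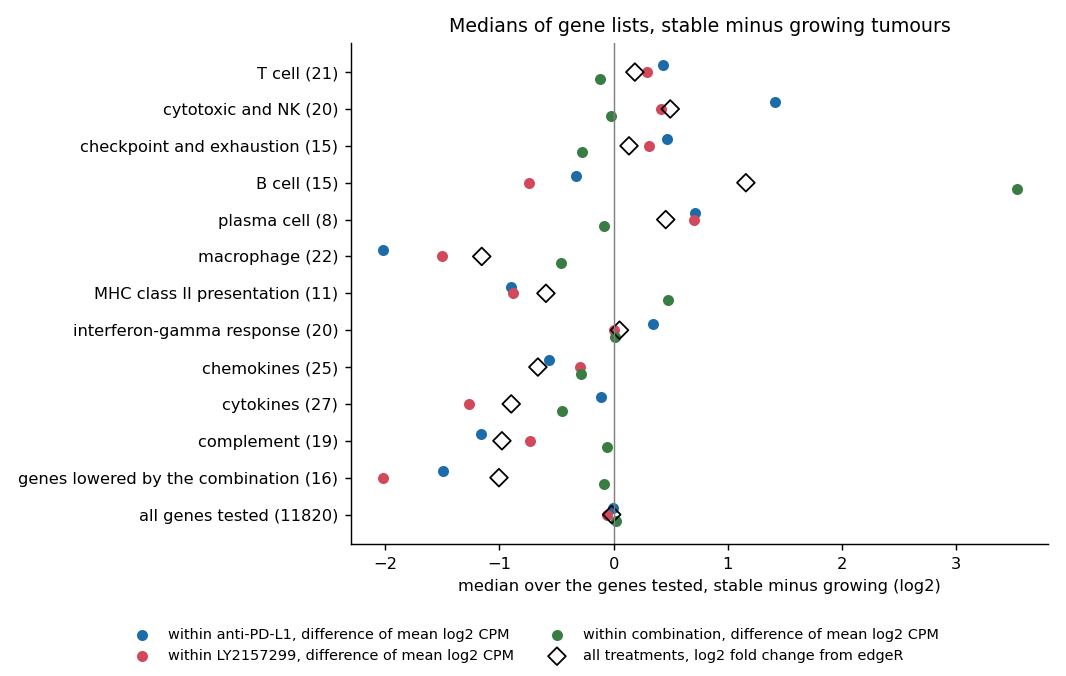
Median over the genes of each list (number tested in brackets) of the difference between stable and growing tumours on a log2 scale (horizontal axis). Diamonds are the fitted log2 fold changes over all treatments and dots the differences of mean log2 CPM within a treatment. The macrophage list lies below 0 for each treatment, and the B cell list at 3.53 under the combination and below 0 under either drug alone. Under the antibody the growing rat P29 stands far above the other growing rats in the B cell list.

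T cell genes lay slightly higher in the stable tumours. Of 21 tested, 16 had a positive log2 fold change, with a median of 0.19, none at an unadjusted p under 0.05. Zap70, a kinase at the T cell receptor, lay at 331, 502 and 741 CPM in the stable and at 243, 378 and 811 CPM in the growing rats (0.32 ± 0.23). Lck, another kinase at the receptor, gave 0.23 ± 0.17, and Trat1, an adaptor of the receptor complex, 0.38 ± 0.24. The mean of the list stood at 8.10 to 8.42 log2 CPM in the stable rats under either drug alone, above all growing rats on these drugs (7.65 to 7.98). Under the combination the stable values (7.86 and 8.18) lay among the growing ones (7.49 to 8.50). In batch 3 alone the median log2 fold change was -0.27, against 0.25 in batch 2. It was 0.12 without P28, 0.29 without P36 and 0.042 with a Ptprc minimum of 100 CPM. That minimum adds only the column of rat P28 with 124 CPM of Ptprc. Besides its CD45 sample, the labels of that tumour hold only a sample labelled Ep, for epithelium.

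CD4 and CD8 lineage genes overlapped fully between the classes. Cd8a, which encodes the coreceptor chain of cytotoxic T cells, lay at 57.9, 235 and 605 CPM in the stable and at 49.1, 130 and 545 CPM in the growing rats. Both extremes among the stable rats belonged to LY2157299 (P17 at 605 and P21 at 57.9 CPM). The log2 fold change of Cd8a was 0.48 ± 0.55 (95% interval -0.68 to 1.64). Cd8b, the partner chain, gave 0.45 ± 0.47 (-0.53 to 1.44). Cd4, the coreceptor of helper T cells, lay at 72.3, 262 and 324 CPM against 160, 243 and 430 CPM (-0.02 ± 0.27). Foxp3, the factor that defines regulatory T cells, lay at 88.5, 135 and 349 CPM against 104, 146 and 402 CPM (-0.21 ± 0.37). Intervals of this width do not show that the classes are alike.

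Cytotoxic and NK genes had a median log2 fold change of 0.50 over 20 tested, with 15 above 0. At an unadjusted p under 0.05 stood 1 in each direction, beside 2.50% (higher) and 2.55% (lower) of all genes. Gzmk, a granzyme of memory CD8 T cells, lay at 20.2, 54.3 and 1028 CPM in the stable and at 5.98, 24.8 and 104 CPM in the growing rats (1.89 ± 0.95), and its highest value came from P17. The list median was 0.15 without P17, 0.85 without P16, 0.30 without the rats of both classes, 0.17 in batch 2 and 1.12 in batch 3. Prf1, which encodes perforin, lay at 32.4, 80.6 and 246 CPM against 21.4, 47.4 and 175 CPM (0.58 ± 0.44). Gzmb lay at 1.85, 4.48 and 45.9 CPM against 1.65, 4.26 and 10.6 CPM (0.70 ± 0.67), where 45.9 CPM was again P17. Tbx21, the T-bet factor of type 1 effector cells, gave 0.82 ± 0.41, whereas Cst7, an inhibitor of lysosomal proteases found in cytotoxic and myeloid cells, gave -1.01 ± 0.38 (unadjusted p = 0.016). Ifng lay at 15.6, 31.2 and 53.7 CPM against 1.24, 34.6 and 124 CPM (-0.18 ± 0.55). Under the antibody both stable rats (5.88 and 5.98 log2 CPM of the list) stood above all 4 growing rats (4.12 to 5.08).

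Checkpoint genes were split. Of 15 tested, 9 lay above 0, with a median of 0.13. At an unadjusted p under 0.05 stood 3 of the 9, beside 2.50% of all genes. Lag3, an inhibitory receptor that binds MHC class II, lay at 275, 571 and 1161 CPM in the stable and at 140, 328 and 828 CPM in the growing rats (log2 fold change 0.89 ± 0.32, 95% interval 0.22 to 1.56). Under the antibody the stable rats held 680 and 795 CPM, above the growing range of 140 to 282 CPM, and under the other treatments the classes overlapped. Tox, a factor of exhausted T cells, lay at 135, 192 and 276 CPM against 98.2, 150 and 184 CPM (0.41 ± 0.16). Pdcd1lg2, which encodes the second PD-1 ligand PD-L2, lay at 6.44, 19.2 and 37.2 CPM against 5.08, 9.13 and 19.3 CPM (0.82 ± 0.37). Vsir, another inhibitory ligand and receptor, gave -0.28 ± 0.17. In batch 2 the list median was 0.54 and in batch 3 -0.32. Leaving out 1 rat moved it between -0.01 (without P21) and 0.26 (without P36), with P16, P17, P19, P24, P26, P33 and P35 also moving it strongly for its size.

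The genes of the drug targets overlapped between the classes. Cd274, which encodes PD-L1, lay at 36.1, 58.9 and 170 CPM in the stable and at 28.3, 54.7 and 99.9 CPM in the growing rats (0.33 ± 0.34, 95% interval -0.37 to 1.04). Under the antibody both stable rats (124 and 170 CPM) stood above all growing rats of that group (28.3 to 99.9 CPM). Under the combination the stable rats held 36.1 and 37.7 CPM, inside the growing range of 31.3 to 92.1 CPM. Pdcd1, the gene of PD-1, was at 0 counts in 4 of 6 stable and 4 of 12 growing samples. The other stable rats, P17 and P36, held 29.3 and 21 CPM, and the highest growing rat held 42.7 CPM. Its log2 fold change of -0.97 ± 1.88 carries an interval from -4.96 to 3.03. Tgfb1, the TGF-beta ligand, gave -0.18 ± 0.28, and its receptors Tgfbr1 and Tgfbr2 gave -0.18 ± 0.36 and 0.01 ± 0.37.

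Interferon-gamma response genes centred near 0, with a median of 0.05 over 20 tested and 11 above 0. Irf1, a factor that interferons induce, lay at 465, 734 and 1634 CPM in the stable and at 352, 494 and 795 CPM in the growing rats (0.65 ± 0.23, unadjusted p = 0.010). It was higher on average in the stable rats under each treatment, and the classes overlapped. Gbp4, an interferon-induced GTPase, gave 0.29 ± 0.17, Tap1, which moves peptides for MHC class I, gave 0.34 ± 0.20, and Ifngr1, a receptor chain, gave 0.67 ± 0.43. The list median was 0.45 in batch 2 and -0.16 in batch 3, and ran from 0.02 (without P29) to 0.14 (without P36) with 1 rat left out, with P16, P17, P19, P21, P24 and P31 also moving it strongly for its size.

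B cell genes lay on different sides of 0 by treatment. All 15 genes tested lay above 0, with a median log2 fold change of 1.16. At an unadjusted p under 0.05 stood 1 of the 15, beside 2.50% of all genes. The difference of mean log2 CPM had a median of 3.53 within the combination rats, -0.33 under the antibody and -0.74 under LY2157299. Pou2af1, a coactivator of B cell transcription, lay at 14.1, 23.5 and 71 CPM in the stable and at 1.04, 6.37 and 90.04 CPM in the growing rats (1.55 ± 0.71). Its top values were the stable combination rats P31 (71 CPM) and P36 (38.1 CPM) and the growing anti-PD-L1 rat P29 (90.04 CPM). Ebf1 and Pax5, factors of B cell identity, gave 1.70 ± 1.27 and 1.27 ± 1.08, and Blk, a B cell kinase, gave 0.85 ± 0.59.

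The B cell list stood at 6.34 and 5.97 log2 CPM in the 2 stable combination rats, and at 0.84 to 3.61 in the 5 growing ones. In rat P31 the stable tumours held 6.34 and the growing tumour 2.07. The growing anti-PD-L1 rat P29 held 6.85, above every stable rat. The other growing rats under the antibody held 2.15 to 2.30, below both stable ones (3.10 and 3.11). The mean difference below 0 under the antibody thus rested on P29. The list median of the log2 fold change was 0.33 without P31 and 0.71 to 0.74 without P33, P34 or P36. It was 1.75 to 1.81 without P24, P28 or P29. In batch 2 alone it was -0.42, in batch 3 alone 2.17, and with the rat as a block 2.51.

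Plasma cell genes had a median of 0.46 over 8 tested, with 5 above 0. At an unadjusted p under 0.05 stood 3, all higher in the stable rats, beside 2.50% of all genes. Mzb1, a chaperone of antibody-secreting cells, lay at 2.23, 17.7 and 28.4 CPM in the stable and at 0.311, 1.62 and 22.2 CPM in the growing rats (1.68 ± 0.77). Of the stable rats 5 held 10.0 CPM or more and P17 held 2.23 CPM, while 9 of the 12 growing rats lay below 4 CPM. Prdm1, which drives plasma cells and is also made by effector T cells, lay at 209, 314 and 470 CPM against 127, 172 and 441 CPM (0.61 ± 0.27). Tent5c, a poly(A) polymerase active in antibody-secreting cells, gave 0.56 ± 0.24. It lay at 441 to 1431 CPM in the stable and at 378 to 864 CPM in the growing rats, far above Mzb1. Which cells carried it was not tested. Sdc1, a proteoglycan of plasma cells and epithelium, gave -0.72 ± 0.50. The list median was -0.17 with the rat as a block, 0.70 without the rats of both classes, 0.48 in batch 2 and -0.01 in batch 3.

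The genes with the smallest p belonged to no single list. Of the 10 with a higher level in the stable rats, the log2 fold changes ran from 0.61 to 2.83. Among them 8 were higher on average under each treatment, where 12.2% of all genes were. The genes were picked by p on these same samples, so this agreement is partly built in and is not independent evidence.

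Rasl11b, a RAS-like GTPase, lay at 13.4, 31.2 and 143 CPM in the stable and at 5.04, 11.2 and 22.3 CPM in the growing rats. Its log2 fold change was 1.78 ± 0.42 (95% interval 0.91 to 2.65, unadjusted p = 0.00043), and DESeq2 gave an adjusted p of 0.0390. Under the antibody and under LY2157299 all 4 stable rats (26 to 143 CPM) lay above all growing rats, and under the combination the classes overlapped. Ly6d, a membrane-anchored protein of lymphoid progenitors and keratinocytes, lay at 0.741, 3.91 and 5.66 CPM in the stable rats. It was at 0 counts in 2 growing rats and reached 2.45 CPM in P29 (2.83 ± 0.72). Tob1, an antiproliferative protein of resting T cells, lay at 85.6, 144 and 256 CPM against 28.4, 80.8 and 105 CPM (0.93 ± 0.25). The 3 lowest stable rats (P24, P31 and P36) overlapped with the growing ones.

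Hap1, a trafficking protein that binds huntingtin, gave 0.75 ± 0.19, and Nkd2, an inhibitor of Wnt signalling, gave 0.95 ± 0.26. Arl4d, an ARF-like GTPase, gave 1.30 ± 0.38, and Rsrc2, a nuclear protein with arginine and serine repeats, 0.61 ± 0.18. Pitpnm2, a phosphatidylinositol transfer protein, gave 0.75 ± 0.21 and Heca, a homologue of the fly gene headcase, 0.76 ± 0.21. Both of these lay higher in the stable rats under either drug alone and slightly lower under the combination (differences of -0.16 and -0.13 log2 CPM). Their unadjusted interaction p in edgeR was 0.0017 for Pitpnm2 and 0.0046 for Heca.

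All 10 genes with the smallest p on the lower side had log2 fold changes from -2.88 to -0.72. Each had a lower mean in the stable rats under each treatment, where 13.9% of all genes did. They too were picked by p on these samples, so this agreement is partly built in. Ccdc92, a coiled-coil protein, lay at 3.6, 6.42 and 18.3 CPM in the stable and at 10.46, 19.8 and 42.6 CPM in the growing rats. Only P36 and P31 of the stable rats reached the growing range. The log2 fold change was -1.50 ± 0.34 (95% interval -2.22 to -0.79, unadjusted p = 0.00031), with an adjusted p of 0.0338 in DESeq2.

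Plgrkt, a plasminogen receptor of macrophages and other cells, was the 1 named gene whose classes did not overlap. All 6 stable rats held 3.77 to 6.92 CPM and all 12 growing rats 7.20 to 13.8 CPM, and the medians were 5.53 and 9.75 CPM. Its log2 fold change was -0.89 ± 0.24 (unadjusted p = 0.0014). Plgrkt was picked by p on these same samples, so its lack of overlap is partly built in and is not independent evidence. Over all genes 2 (0.0169%) had no overlap between the classes, Plgrkt and Ten1, a telomere-binding protein, which gave a log2 fold change of -0.55 and was named after its values were seen.

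Tax1bp3, a PDZ domain protein, lay at 17.9, 24.8 and 42.4 CPM against 27.5, 46.5 and 86.4 CPM (-0.89 ± 0.21). Laptm4b, a lysosomal membrane protein, gave -1.02 ± 0.28, Sphk1, which makes sphingosine 1-phosphate, gave -1.11 ± 0.31, and Npl, an enzyme of sialic acid breakdown, gave -2.32 ± 0.67 at levels under 6 CPM. Pi16, a surface protein of some T cells and fibroblasts, lay at 21.5, 53.9 and 104 CPM against 40.6, 105 and 152 CPM (-0.93 ± 0.26). Nmur1, the neuromedin U receptor of group 2 innate lymphoid cells, gave -0.72 ± 0.21.

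**Figure D4:**
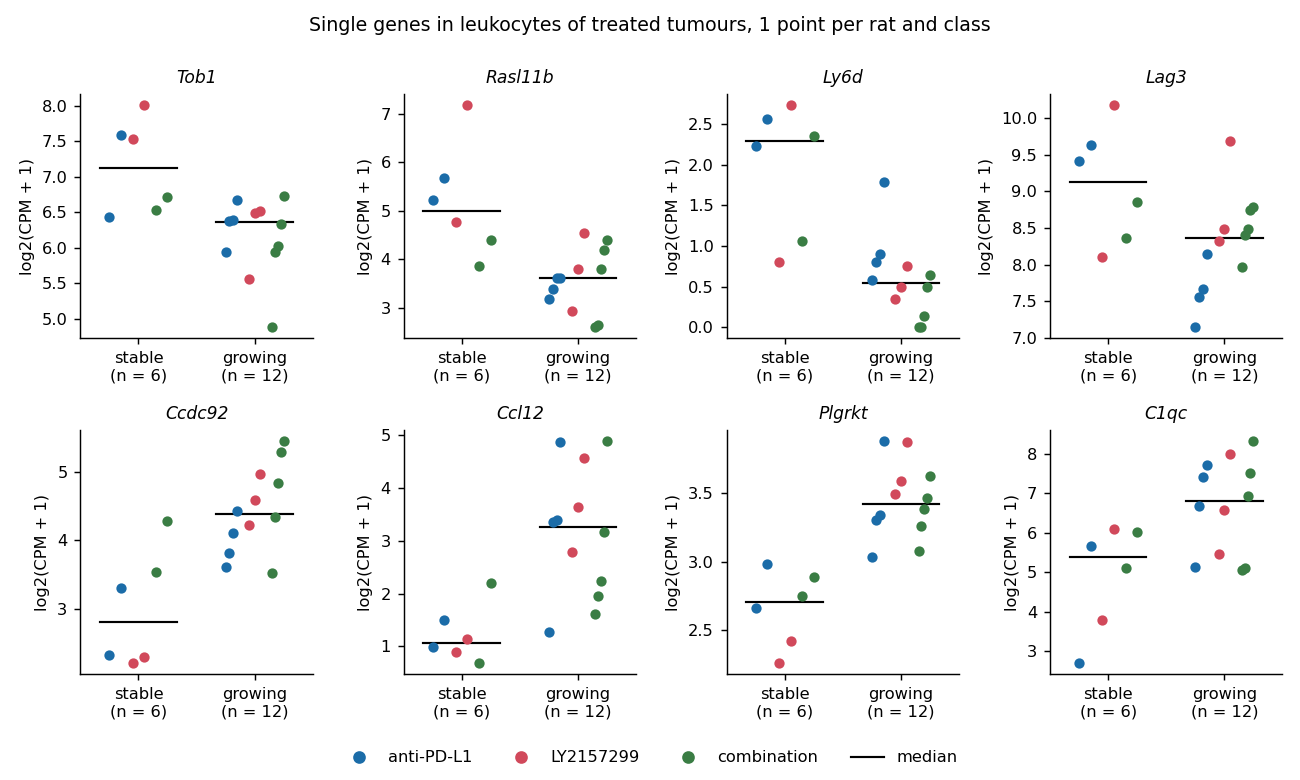
Levels of 8 genes as log2(CPM + 1) (vertical axes) in stable and growing tumours (horizontal axes), 1 point per rat and class coloured by treatment, with a line at the class median. Plgrkt shows no overlap, at 3.77 to 6.92 CPM in the stable and 7.20 to 13.8 CPM in the growing rats, and the other panels overlap.

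Genes of cells outside the leukocyte gate varied beside these values. Krt5, a keratin of basal cells, was among the 10 lowest p at 0.999, 3.07 and 6.18 CPM in the stable and 1.90, 11.7 and 19 CPM in the growing rats (-1.68 ± 0.48). Acta2, the actin of myoepithelium and smooth muscle, lay at 0.285, 1.38 and 6.44 CPM against 1.59, 5.59 and 8.85 CPM (-1.39 ± 0.52, unadjusted p = 0.015). Of 11 basal and myoepithelial genes tested, 6 lay below 0, with a median of -0.24. At an unadjusted p under 0.05 stood 3 of the 6, beside 2.55% of all genes. Of 15 luminal genes 9 lay below 0 (median -0.09), and of 18 matrix genes 13 lay above 0 (median 0.69), none at an unadjusted p under 0.05. Epcam gave -0.53 ± 0.54, Krt8 0.14 ± 0.60 and Col1a1 0.83 ± 1.22. With the summed log2 CPM of Epcam, Krt8 and Krt18 as a covariate edgeR called 0 genes and 571 had an unadjusted p under 0.05. The part of basal cells in the other differences was not tested.

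Vehicle tumours gave the background of the same lists. Of the vehicle rats with leukocyte columns 7 had growing tumours and 1, P7, a stable one, so the classes were not tested there. The macrophage list had a mean of 5.54, 6.65 and 8.70 log2 CPM (lowest, median and highest) in the 7 growing vehicle rats and 4.54 in P7. Scaled in the same way, the treated medians were 4.17 in the stable and 5.16 in the growing rats. For the T cell list the growing vehicle rats lay at 6.37, 7.58 and 8.07 and P7 at 8.26, beside treated medians of 8.22 and 7.92. Rasl11b lay at 0.533 to 29 CPM in the growing vehicle rats and at 89.3 CPM in P7, and Plgrkt at 8.0 to 17.2 CPM and at 2.97 CPM. For Ly6d P7 held 0.649 CPM, inside the range of the growing vehicle rats, which ended at 0.782 CPM. With the vehicle rats added to the fit edgeR called 0 genes, the smallest adjusted p was 0.077, and 1707 genes (13.8%) had an unadjusted p under 0.05.

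The share of genes at an unadjusted p under 0.05 depended on which rats entered. In batch 2 alone it was 13.8% and in batch 3 alone 2.18%, each with 0 genes called by edgeR. Within LY2157299 it was 12.6%, within the antibody 5.83% and within the combination 1.42%, again with 0 called. Leaving out 1 rat moved it between 2.91% (without P28) and 8.55% (without P36).

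The CD8 fraction that the authors deposited for each tumour overlapped between the classes. Its denominator is not stated in the sources used here. It averaged 9.30% ± 12.8 (SD, n = 7) in stable and 5.93% ± 5.54 (n = 11) in growing treated rats. The difference of 3.38 percentage points gave p = 0.651 in an exact two-sided permutation test with class permuted within treatment (3500 arrangements, smallest possible p 0.00057), adjusted to 0.651 over 3 measures. The stable mean rested on rat P28, whose tumour held 38%. The other stable rats held 2.24 to 6.81% and the growing rats 1.00 to 15.5%, and without P28 the difference was -1.41 percentage points. Among tumours that also gave a leukocyte column the means were 11.8% ± 14.7 (n = 5) and 4.96% ± 4.77 (n = 10), with p = 0.277 in the same exact test. In vehicle rats 2 stable tumours held 11.2 and 27.7%, and 7 rats with growing tumours held 0.814 to 8.0% (9 tumours, averaged per rat).

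**Figure D5:**
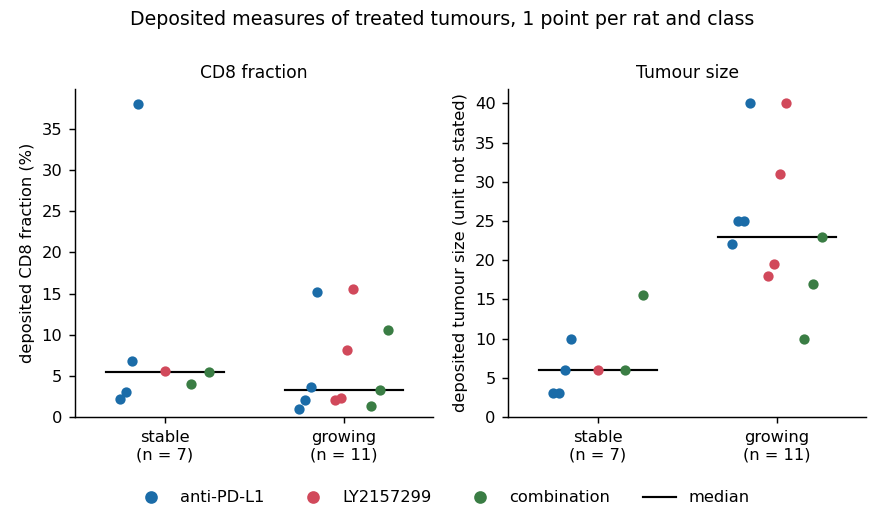
Deposited CD8 fraction in percent (left) and deposited tumour size in a unit that is not stated (right) of treated tumours by growth class, 1 point per rat and class coloured by treatment, with a line at the median. Rat P28 holds 38% CD8 while the other stable rats hold 2.24 to 6.81%, and stable sizes run from 3 to 15.5 against 10 to 40 in growing rats.

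Size followed the class, as a measure tied to growth, so a difference was close to given and its test is a description. Size and time were tested in the rats with a CD8 value. Size averaged 7.07 ± 4.40 (SD, n = 7) in stable and 24.6 ± 9.30 (n = 11) in growing rats, in a unit that is not stated, and the exact permutation test within treatment gave p = 0.0011 (0.0034 adjusted over the 3 measures). Time from NMU to sacrifice averaged 126 ± 38.8 (n = 7) and 99.5 ± 29.9 (n = 11), also in an unstated unit, with p = 0.146 in the exact permutation test. Over all treated tumours with a class, in 8 stable and 14 growing samples, the difference in time was 10.3 instead of 26.9 and the exact permutation p was 0.561. Among the tumours that gave the leukocyte columns the median time was lower in the stable class, at 79 against 112. Rats P24 and P31 enter both classes in these tests, so the groups are not fully independent. Over all treated tumours with a class, rat P17 does so too.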

How the data were processed

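RNA of sorted leukocytes had been amplified from under 10 ng with a SMARTer kit, per the labels' protocols. The authors deposited whole-number counts per gene symbol, and per the submitters' processing notes STAR, FastQC and rn6 were used. No source used here names the counter, the annotation or the use of strand. Overlapping and near-identical genes therefore cannot be told apart. CD8 values were deposited as a fraction from 0 to 1 per tumour and are printed in percent.

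Headers repeat a rat and tumour without a fraction, so 87 columns were read by number and 21 others were not used. For rat P22 columns and labelled samples differ by 1 between its tumours, both growing. Counts were summed per rat and class and fitted with edgeR 4.0.16 in R 4.3.3 (TMM, filterByExpr, robust quasi-likelihood F test, treatment as a covariate, Benjamini-Hochberg at 0.05). Each SE was taken as the size of the log2 fold change divided by the root of its F value. Lists are means of log2 CPM with a prior count of 2. DESeq2 1.42.0, limma 3.58.1 voom, RLE scaling, other filters, batch, Ptprc minimum, blocks, covariates and leaving out each rat were alternatives. The model was tested on simulated counts with planted changes larger than most reported here and with no treatment, batch or shared-rat effects. That test does not cover smaller changes.

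The members and gene lists were chosen with earlier results of these data known. Named genes are the 10 with the smallest p per direction (fewer than 10 passed), up to 4 per described list by p, and a fixed set of targets and markers, of which 2 genes are not reported here. Amplified reads are not independent molecules, so floors of 3 counts cover counting error only. Whether tumours of 1 rat arose independently is not stated. The main fit holds no term for the rat and counts P24 and P31 in both classes, so its samples are not fully independent. The p-values measure the spread between these samples.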

Additional observations from a re-analysis of the deposited data

Results flagged for a closer look

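Of 117 groups of 4 to 10 values examined, 6 held a highest or lowest value far from the others, where chance gives about 1 in 20. In the stable rats C5ar1 was -2.43 log2 CPM in P28 while the others lay at 1.44 to 3.18. Cd4 was 6.18 log2 CPM in the stable rat P17 while the others lay at 7.90 to 8.34. The MHC class II list was 9.33 log2 CPM in the stable rat P36 while the others lay at 5.82 to 7.07. The CD8 fraction was 38.01% in the stable rat P28 while the others lay at 2.24 to 6.81%. In growing rats under the antibody the B cell list was 6.85 log2 CPM in P29 while the others lay at 2.15 to 2.30. In growing rats under the combination the cytokine list was 3.91 log2 CPM in P35 while the others lay at 3.01 to 3.06.

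The B cell list had opposite signs under different treatments. Stable minus growing was -0.79 log2 CPM under LY2157299, with both stable rats below all growing ones, and 3.97 log2 CPM under the combination, with both stable rats above all growing ones. This difference was not tested on the list.

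Libraries outside the comparison also stood apart. In the stable vehicle rat P7 the T cell list was 8.265 log2 CPM, the cytotoxic and NK list 5.91, the B cell list 2.93 and the plasma cell list 6.13, each above all 7 growing vehicle rats. Other lists of P7 stood above those rats too. Among them were the regulatory T cell list (8.07, highest growing vehicle rat 7.62), the monocyte and neutrophil list (4.99, 4.74) and the luminal epithelial list (4.98, 4.55). The macrophage and MHC class II lists of P7 lay below all of those rats. In the anti-PD-L1 tumour without a growth class the cytotoxic and NK list was 5.56 log2 CPM, also above the 7 growing vehicle rats. Its regulatory T cell list, at 7.82, lay above them as well.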

How the results depend on the processing

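The alternatives run with edgeR called 0 genes, among them the rat as a replicate block (0 genes, 385 at an unadjusted p under 0.05), no filter (0, 909) and the replicates left out in turn (0 to 0, 355 to 1056). limma voom called 0 (705) and DESeq2 called 5. The replicate block rests on rats P24 and P31, the only rats with both classes. Size, a measure tied to growth, kept its direction and its side of the threshold in all alternatives run. The difference ran from -19.0 to -16.0 with 1 rat left out, and its test is a description. The CD8 difference was -1.13 percentage points in batch 3 alone and ran from -1.41 (without P28) to 4.56 with 1 rat left out. Depth limits Ly6d, Msr1, Npl and Pdcd1, which had few or 0 counts in some rats. The fit in batch 3 alone, the CD8 batch values, size and time over all treated tumours with a class, and the list medians by setting were chosen after seeing the data.

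Over 78 named genes 44 kept their sign in every setting, the 19 of smallest p among them. Those 19 were picked by p on these samples, which favours a kept sign. The opposite sign came in 66 of 1323 log2 fold changes under another setting and in 17 of 1248 with 1 rat left out. The cause was not tested, and the opposite values of the log2 fold change were as follows. With limma voom it was Ifng 0.19 and Krt8 -0.0866. With no filter it was Tgfbr2 -0.0132. With no treatment term it was Tgfb1 0.11, Tgfbr2 -0.00489 and Col1a1 -0.00444. With batch as a covariate it was Tgfbr2 -0.14 and Foxp3 0.092. In batch 2 alone it was Tgfb1 0.48, Tgfbr1 0.15, Cd8a -0.11, Cd8b -0.10, Cd4 0.36, Foxp3 0.75, Gzmb -0.13, Epcam 0.0727, Krt8 -0.0298 and Pax5 -0.48. In batch 3 alone it was Cd274 -0.57, Pdcd1 0.12, Tgfbr2 -0.91, Ifng 0.0583, Zap70 -0.18, Lck -0.30, Tox -0.0231, Tent5c -0.0533, Prdm1 -0.17, Irf1 -0.14 and Tap1 -0.0141. With a Ptprc minimum of 100 CPM, which added the P28 column at 124 CPM, it was Tgfbr2 -0.0514, Epcam 1.21 and Il18 0.0294. With each column as a library and the rat as a random block it was Ifng 0.10. Without the rats of both classes it was Tgfb1 0.0741, Tgfbr2 -0.22, Foxp3 0.22, Ifng 0.0348 and Krt8 -0.36. With the rat as a replicate block it was Cd274 -0.23, Cd4 0.33, Gzmb -1.41, Epcam 0.45, Trat1 -0.13, Gzmk -0.56, Tent5c -0.13, RT1-Da 0.00942, RT1-Db1 0.00784, Cd74 0.14, RT1-Ba 0.11 and Ifngr1 -0.38. With vehicle rats added it was Tgfbr2 -0.0867, Foxp3 0.23, Ifng 0.17 and Epcam 0.30. With growth rate as a continuous term (change per unit of rate, sign turned so that slower growth is positive) it was Pdcd1 0.17, Tgfb1 0.0153, Tgfbr1 0.0359, Cd8a -0.0297, Cd8b -0.0253, Foxp3 0.024, Prf1 -0.0151, Krt8 -0.0573, Lag3 -0.00462, Ebf1 -0.00412, Pax5 -0.00261 and C1qc 0.00906. With 1 rat left out Tgfbr2 ran from -0.18 to 0.17, Cd4 from -0.17 to 0.18, Gzmb from -0.39 to 1.12, Ifng from -0.56 to 0.0046 and Krt8 from -0.44 to 0.45.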
